A study of Rattus norvegicus with 8 samples.

Results

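Cholesterol synthesis genes were examined in the injured L5 dorsal root ganglion (DRG), the cluster of sensory neuron cell bodies, glia and resident immune cells that joins the fifth lumbar spinal nerve. A total of 8 genes were taken by name (Hmgcs1, Sqle, Idi1, Fdft1, Lss, Dhcr7, Insig1 and Cyp51), and each was read from probe sets that carry its symbol alone in the platform annotation. Such a probe set was present for 7 of the 8, out of 14497 genes measured in the same way. Hmgcs1, a synthase of the mevalonate pathway, was not analysed here. None of the 8 genes encodes a protein that takes up cholesterol, so uptake is described from a separate list of lipoprotein receptors and sterol transporters.

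All samples came from adult male Wistar rats whose L5 spinal nerve had been ligated and cut, and the ganglion on the injured side was collected on day 14. The HDACI group (n = 4) received MS-275, an inhibitor of class I histone deacetylases, at 30 nmol per day into the intrathecal space from an osmotic pump, and the vehicle group (n = 4) received the solvent, dimethyl sulfoxide in saline, by the same route. Both groups were therefore injured, and no uninjured ganglia were included. The catheter tip lay over the lumbar cord above the L5 ganglion, which bounds these samples as a model of drug action on the ganglion itself. In Western blots of L5 ganglia, the paper saw no clear change of histone acetylation with the drug. RNA of each sample was measured on its own Affymetrix Rat Gene 1.0 ST array, and the methods call the samples biological replicates.

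Values are given on the log2 scale, on which a difference of 1 is a doubling, and differences are HDACI minus vehicle. A higher value of 1 probe set than of another does not show more RNA, because probe sets bind with different strength, so levels are compared only within a gene. The medians of the arrays were between 8.13 and 8.16, and all 7 genes exceeded these medians on all arrays. The same was true of 12 of 12 sensory neuron markers, 12 of 13 markers of myelinating Schwann cells, 7 of 7 of satellite glia and 9 of 10 of macrophages. It also held for 6 of 6 fibroblast and 6 of 6 endothelial markers, but for only 3 of 12 skeletal muscle and 2 of 8 adipocyte markers. The share of all genes above these medians was not computed. The medians cover all probe sets, while each gene was read from its highest probe set, which favours such counts. Skeletal muscle markers set some arrays apart. Their mean, relative to each gene's mean over all arrays, was 2.67 and 1.75 in vehicle replicates 1 and 2, against -1.15 and 0.66 in vehicle replicates 3 and 4 and -1.28 to -0.82 in the HDACI group. All 12 measured muscle markers were lower in HDACI at an unadjusted limma p under 0.05, against 3.55% of all probe sets past it in either direction. None of the 12 passed an adjusted p of 0.05, and the groups overlapped in each. Vehicle replicate 1 or 2 was the highest array in each, so they are not separate observations. For this reason, results on cholesterol genes are also given without vehicle replicates 1 and 2. Vehicle replicate 4 stays in and was also above the HDACI group in the mean of these markers.

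Cholesterol is built from acetyl-CoA in a long chain of steps. The mevalonate pathway makes activated isoprene units, Fdft1 and Sqle join and oxidize them as squalene, Lss closes the sterol ring, and Cyp51, Dhcr7 and other enzymes trim the ring to cholesterol. Most of these genes are switched on together by the transcription factor SREBP2 (gene Srebf2). SREBP2 is held in the endoplasmic reticulum by SCAP and INSIG proteins while sterols are plentiful and is cut free when sterols run low. In peripheral nerve and ganglion, myelinating Schwann cells make most of the cholesterol that enters myelin, and cholesterol from degenerating myelin is taken up and recycled by macrophages after injury.

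Promoter letters are shown for the 3 measured genes that carried a CCAAT box, the site bound by the factor NF-Y that works beside SREBP2. Promoters were read from RefSeq (assembly GRCr8), in which 6 of the 8 genes had an entry, and the 250 bases before each gene's start were searched on both strands. The box, CCAAT or ATTGG on the other strand, was found in 4 of the 6 (Hmgcs1, Idi1, Lss and Insig1), in 10 of 11 other cholesterol synthesis enzymes, and in 34% of all 33469 promoters. A GC box (GGGCGG or its complement) was found in 5 of 6, in 10 of 11 and in 30.5%. The sterol regulatory element in the form TCACNCCAC was found in 0 of 6, 0 of 11 and 0.974%, which says only that these letters are not in these windows. A match is a description of the sequence and not a bound site. The windows below run 5′ to 3′ along the gene's own strand with the box in capitals, and Srebf2, which was chosen after its values were seen, is added as the gene of the pathway's activator.
Insig1, chr4:8057933-8057987, minus strand: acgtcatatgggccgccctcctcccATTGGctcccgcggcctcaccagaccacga
Idi1, chr17:66547530-66547615, minus strand: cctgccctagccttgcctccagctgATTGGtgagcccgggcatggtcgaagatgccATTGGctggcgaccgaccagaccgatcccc
Lss, chr20:12118283-12118337, minus strand: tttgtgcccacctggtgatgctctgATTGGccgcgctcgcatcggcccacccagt
Srebf2, chr7:115543153-115543207, plus strand: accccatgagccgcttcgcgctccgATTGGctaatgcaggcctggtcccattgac
In all 4 windows the box stands in the ATTGG orientation, and Idi1 carries it at 2 positions, 66 and 35 bases before its start. The box lies 193 bases before the start of Insig1 and 82 bases before that of Lss.

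None of the 7 genes passed the test for a difference between HDACI and vehicle. Each had a mean slightly lower in HDACI than in vehicle, by 0.02 (Dhcr7) to 0.14 (Insig1) on the log2 scale, and the 2 groups overlapped for each of them. None of the 7 passed an adjusted p of 0.05 in limma (adjusted p = 0.9998 for each), and 0% of the 28826 probe sets did. None passed an unadjusted p of 0.05 either, against 3.55% of all probe sets (1022 of 28826). The groups failed to overlap in 0 of 7 genes and in 2.1% of probe sets. Although 7 of 7 genes were lower, 46.9% of all genes were lower by any amount, and the 7 moved together from array to array, so that they do not count as 7 separate observations. The median difference of the 7 was -0.05, against 0.00 over all genes.

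**Figure D1:**
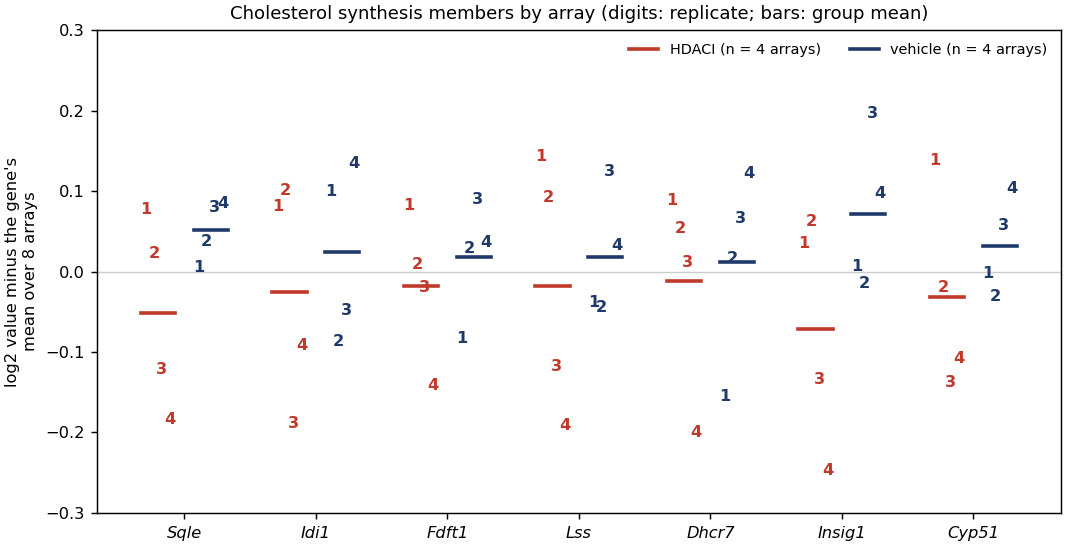
Log2 value of each of the 7 cholesterol synthesis genes minus that gene's mean over the 8 arrays. Digits are replicate numbers, red for HDACI and blue for vehicle (n = 4 arrays each), and bars are group means. HDACI replicates 1 and 2 sit above HDACI replicates 3 and 4 in each gene, and the groups overlap in each gene.

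In the mevalonate part, Idi1 makes the reactive isoprene unit dimethylallyl diphosphate. Its values were 9.94, 9.97, 9.68 and 9.77 in HDACI replicates 1 to 4 and 9.96, 9.78, 9.82 and 9.999 in vehicle replicates 1 to 4. The lowest values were those of HDACI replicates 3 and 4, while HDACI replicates 1 and 2 lay among the highest vehicle arrays. The difference was -0.05 ± 0.08 (SE, 95% confidence interval -0.23 to 0.13), with an unadjusted limma p of 0.557.

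At the squalene steps, Fdft1 (squalene synthase) commits isoprene units to sterols, and Sqle (squalene epoxidase) adds the oxygen and is a rate-controlling step. For Fdft1, the values were 12.38, 12.30, 12.27 and 12.15 in HDACI and 12.21, 12.32, 12.38 and 12.33 in vehicle. HDACI replicate 1 and vehicle replicate 3 were highest, and HDACI replicate 4 was lowest. The difference was -0.04 ± 0.06 (-0.17 to 0.10, unadjusted p = 0.575 in limma). Sqle measured 10.32, 10.27, 10.12 and 10.06 in HDACI and 10.25, 10.28, 10.33 and 10.33 in vehicle. Here the vehicle arrays lay close together (SD 0.04, n = 4), the HDACI arrays were wider apart (SD 0.12, n = 4), and only HDACI replicates 3 and 4 lay under the vehicle range. The difference was -0.10 ± 0.06 (-0.25 to 0.04, unadjusted p = 0.143 in limma). Without HDACI replicate 1 it was -0.15 with an unadjusted limma p of 0.0471, the one setting among those tried in which any of the 7 genes passed that threshold.

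In the ring part, Lss (lanosterol synthase) folds oxidized squalene into the first sterol, Cyp51 removes a methyl group from it, and Dhcr7 carries out the last reduction on one route to cholesterol. Lss measured 10.49, 10.44, 10.23 and 10.15 in HDACI and 10.30, 10.30, 10.47 and 10.38 in vehicle. Its HDACI values thus spanned both the highest and the lowest of the 8 arrays. The difference was -0.04 ± 0.08 (-0.22 to 0.15, unadjusted p = 0.668 in limma). Cyp51 measured 11.97, 11.82, 11.70 and 11.73 in HDACI and 11.83, 11.81, 11.89 and 11.94 in vehicle. HDACI replicate 1 was again highest of all arrays and HDACI replicates 3 and 4 were lowest. The Cyp51 difference was -0.06 ± 0.07 (-0.22 to 0.09, unadjusted p = 0.372 in limma). Dhcr7 measured 10.29, 10.26, 10.22 and 10.005 in HDACI and 10.05, 10.22, 10.27 and 10.33 in vehicle. One array of each group was low, HDACI replicate 4 and vehicle replicate 1, and the other six lay between 10.22 and 10.33. The Dhcr7 difference was the smallest of the 7, -0.02 ± 0.08 (-0.21 to 0.16, unadjusted p = 0.776 in limma).

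Insig1, which encodes a protein that retains SREBP2 when sterols are plentiful and is itself an SREBP2 target, had the largest difference of the 7. The values were 11.53, 11.56, 11.36 and 11.25 in HDACI and 11.50, 11.48, 11.69 and 11.59 in vehicle. HDACI replicates 3 and 4 lay below all vehicle arrays, and HDACI replicates 1 and 2 lay inside the vehicle range. The difference was -0.14 ± 0.08 (-0.33 to 0.04, unadjusted p = 0.112 in limma), an interval from 1.25-fold lower to 1.03-fold higher. A second Insig1 probe set gave the same order of size, -0.12 ± 0.09 (unadjusted p = 0.230 in limma), with 10.82, 10.73, 10.68 and 10.51 in HDACI and 10.65, 10.69, 10.94 and 10.93 in vehicle. On that probe set HDACI replicate 4 was also the lowest array.

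**Figure D2:**
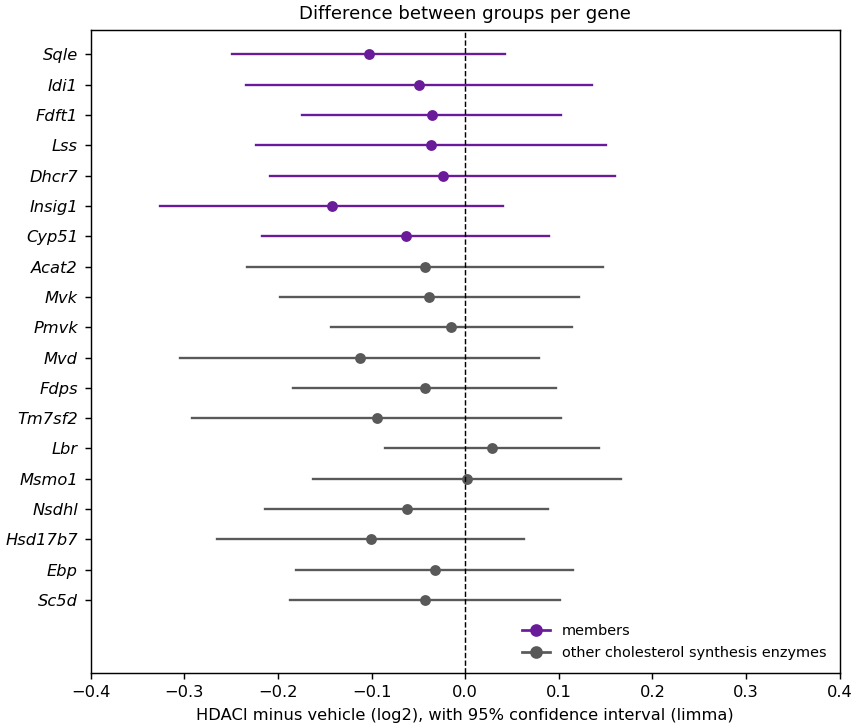
HDACI minus vehicle difference (log2, horizontal axis) with its 95% confidence interval from limma for the 7 genes (purple) and 12 other cholesterol synthesis enzymes (grey). Of the 19 genes, 17 lie left of the dashed line at 0, and each interval crosses that line.

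The intervals bound what 4 arrays per group could show. Across the 7 genes they reached 0.14 to 0.19 to either side on the log2 scale, which is the size of observed difference that an unadjusted p of 0.05 required. Without vehicle replicates 1 and 2, high in muscle markers, the median of the 7 differences was -0.11, all 7 were still lower in HDACI and none passed an unadjusted limma p of 0.05. With the muscle score as a covariate the median was also -0.11. Without HDACI replicate 4, the count of lower genes dropped from 7 to 4, as Fdft1 (0.01), Lss (0.02) and Dhcr7 (0.04) turned. Idi1 (0.0049) turned without HDACI replicate 3 and Dhcr7 (0.013) without vehicle replicate 4, so the direction of these 4 differences depended on single arrays. These are whole ganglia, in which fewer cells of a type and less RNA per cell cannot be told apart.

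Other enzymes of the pathway had small differences as well. Of 13 listed, 12 were measured, 10 were lower (46.9% of all genes were) and 2 higher in HDACI, 0 passed an unadjusted limma p of 0.05, and the median difference was -0.04. The smallest p values belonged to Hsd17b7, a ketone reductase of the ring part (-0.10 ± 0.07, unadjusted p = 0.195 in limma), and Mvd, which makes isopentenyl diphosphate (-0.11 ± 0.08, unadjusted p = 0.215 in limma). In the isoprenoid and dolichol branch, which uses the same intermediates for prenyl groups and ubiquinone, 8 of 10 were measured, with 5 lower, 3 higher and a median of -0.01. Pdss2, a subunit of the enzyme that makes the ubiquinone tail, differed by -0.04 and Fntb, a subunit of farnesyl transferase, by 0.04 (unadjusted p = 0.424 and 0.583 in limma).

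In the sensing, uptake and export lists, 0 genes passed an unadjusted limma p of 0.05. Of all genes, 53.1% were higher in HDACI by any amount, beside which the counts of higher genes in these lists are to be read. Of the sterol sensing and SREBP processing list, 11 of 14 were measured, with 3 lower, 8 higher and a median of 0.05. Insig2, the second INSIG protein, differed by 0.10 and Nr1h2, which encodes the oxysterol receptor LXR beta, by 0.05 (unadjusted p = 0.262 and 0.248 in limma). Of the lipoprotein uptake and sterol transport list, 15 of 18 were measured, with 6 lower, 9 higher and a median of 0.01. Scarb1, the receptor for high density lipoprotein, was the leading gene, at 10.24, 10.04, 10.02 and 10.37 in HDACI and 10.08, 9.97, 10.01 and 10.05 in vehicle. HDACI replicates 1 and 4 were the highest of the 8 arrays, and the difference of 0.14 ± 0.08 did not pass (unadjusted p = 0.121 in limma). Scarb2, a lysosomal membrane protein of the same family, differed by -0.07 (unadjusted p = 0.194 in limma). Of the efflux and oxysterol list, 11 of 12 were measured, with 4 lower, 7 higher and a median of 0.02. The leading genes were the exporters Abcg1 (0.13, unadjusted p = 0.144 in limma) and Abca7 (-0.11, unadjusted p = 0.145 in limma). Scarb1, Abcg1 and Abca7 passed that threshold when 1 array was left out, as the unadjusted p in limma was 0.0459 for Scarb1 without HDACI replicate 3, 0.0254 for Abcg1 without HDACI replicate 1 and 0.0187 for Abca7 without vehicle replicate 1. Abca7 also passed without vehicle replicates 1 and 2 (-0.17, unadjusted p = 0.0443 in limma).

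Fatty acid synthesis, which shares the SREBP family of regulators with cholesterol synthesis, held the single gene past an unadjusted p of 0.05 among the 73 measured of 84 listed in these 6 groups. Of 17 genes, 16 were measured, with 12 lower, 4 higher and a median of -0.04. Me1, the malic enzyme that supplies NADPH, measured 10.70, 10.57, 10.54 and 10.51 in HDACI and 10.64, 10.77, 10.83 and 10.76 in vehicle. HDACI replicate 1 lay above the lowest vehicle array and the other three HDACI arrays lay below it. The difference was -0.17 ± 0.06 (-0.31 to -0.04, unadjusted p = 0.0186, adjusted p = 0.9998 in limma). Without vehicle replicate 3 it was -0.15 (unadjusted p = 0.0552 in limma), and with the replicate number as a block the unadjusted p was 0.0596. A count of 1 in 73 is below the 3.55% found over all probe sets.

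The clearest feature of the 7 genes was that they rose and dropped together between arrays of the same group. After subtraction of each group's mean, the 21 pairs of genes had a mean Pearson r of 0.72 over the 8 arrays, against 0.01 over all pairs of genes on the array. The range ran from 0.17 (Idi1 with Fdft1) to 0.97 (Lss with Insig1), and 14 pairs exceeded 0.7. Idi1 was the least alike. Among the 15 pairs without it the lowest r was 0.61 (Dhcr7 with Cyp51). Set against the mean of the other measured genes, the r was 0.98 for Sqle, 0.96 for Lss, 0.91 for Insig1, 0.85 for Cyp51, 0.81 for Fdft1, 0.77 for Dhcr7 and 0.52 for Idi1. These correlations are given as a description without a p. The arrays share 1 normalization, and genes measured on the same RNA are not independent.

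The mean of the 7 genes, each relative to its own mean, was 0.09, 0.05, -0.10 and -0.17 in HDACI replicates 1 to 4 and -0.02, -0.01, 0.08 and 0.09 in vehicle replicates 1 to 4. The HDACI arrays thus spread over 0.26 and the vehicle arrays over 0.11 on the log2 scale (SD 0.12 and 0.06, n = 4 each). On the probe sets used, all 7 genes had a larger SD in HDACI than in vehicle, though a difference in spread was not tested. The second Insig1 probe set had the reverse, with an SD of 0.13 in HDACI and 0.16 in vehicle. The share of all genes with a larger SD in HDACI was not computed. As the 7 genes moved together from array to array, they do not count as 7 separate observations of spread. HDACI replicate 4 was the lowest HDACI array in 5 genes and HDACI replicate 3 in the remaining 2 (Idi1 and Cyp51). HDACI replicate 1 was the highest HDACI array in 5 genes and HDACI replicate 2 in the others (Idi1 and Insig1). Among vehicle arrays the lowest was replicate 1 or 2, and the highest replicate 3 or 4, in each of the 7 genes. Vehicle replicates 1 and 2 are also the arrays highest in muscle markers, and a link of this order with muscle content was not tested. The mean r between pairs was 0.64 without HDACI replicate 4 and 0.77 without vehicle replicates 1 and 2.

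**Figure D3:**
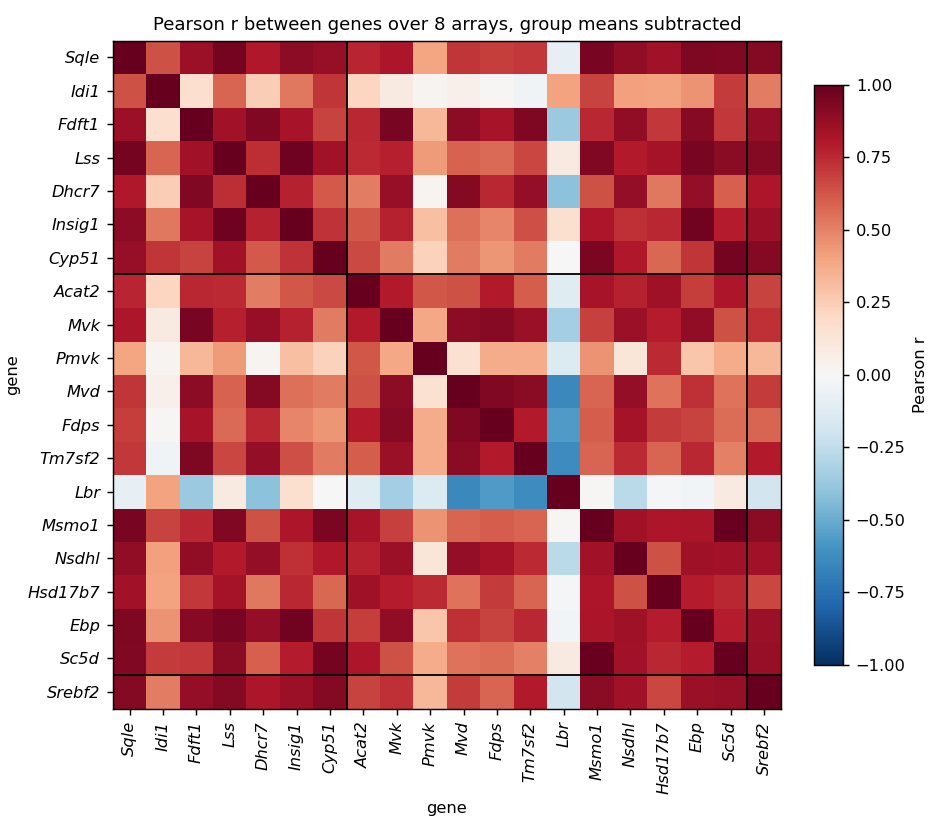
Pearson r between the 7 genes (first block), 12 other cholesterol synthesis enzymes (second block) and Srebf2 (last row and column) over 8 arrays, with the group means subtracted. Red is positive and blue negative on a scale from -1 to 1. Most cells outside Lbr are red, and many of those of Idi1 and Pmvk are pale.

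Most other enzymes of the pathway, which are not part of the mean of the 7 genes, followed the same array pattern. The list was chosen with earlier results of these data known, and its enzymes were read from the same RNA. Their mean had an r of 0.88 with the mean of the 7 genes (Spearman rho 0.86, 8 arrays), and r was 0.67 without HDACI replicates 1 and 4, the arrays farthest from the median. Of the 12 enzymes, 10 had an r over 0.5, against 17.1% of all other genes. The highest, named after their values were seen, were Ebp (0.95), Msmo1 (0.93) and Sc5d (0.91), all enzymes of the ring part. Pmvk, a kinase of the mevalonate part, had 0.28, and Lbr, a nuclear membrane protein with sterol reductase activity, had -0.03. Between the 7 genes and the 12 enzymes, 60 of 84 pairs exceeded 0.5, with a mean of 0.60.

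Srebf2, the gene of the shared activator, followed the same arrays. It measured 11.17, 11.08, 10.97 and 10.96 in HDACI and 10.98, 11.04, 11.13 and 11.12 in vehicle, so that HDACI replicates 3 and 4 and vehicle replicate 1 were lowest. Its r with the 7 genes was 0.95, rank 11 of 14490 other genes, while its difference between groups was -0.02. Srebf2 stands apart from most of the sterol sensing and SREBP processing list it belongs to. In that list 3 of 11 genes had a positive r, and the median r was -0.38. Whether Srebf2 RNA is linked to the level of the 7 genes was not tested. Stard4, a sterol carrier and SREBP2 target, had an r of 0.92. Within the uptake and transport list the genes were divided, with a positive r in 8 of 15 and a median r of 0.20. The most negative values included -0.91 for Npc2, which hands cholesterol out of lysosomes, -0.84 for Soat1, which esterifies cholesterol for storage, and -0.80 for Lipa, the lysosomal lipase that frees cholesterol from its esters. Those 5 genes were picked after their values were seen. For the mean of each list, the r with the mean of the 7 genes was 0.82 for fatty acid synthesis, 0.41 for the isoprenoid branch, -0.45 for efflux, -0.57 for sensing and -0.67 for uptake and transport. Without HDACI replicates 1 and 4 these were 0.54, 0.05, -0.32, -0.14 and -0.36, in the same order, so that the values for the isoprenoid branch and for sensing rest on those arrays. For efflux and for uptake and transport the list mean and its genes differed in sign, since the median r of single genes was 0.17 and 0.20.

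**Figure D4:**
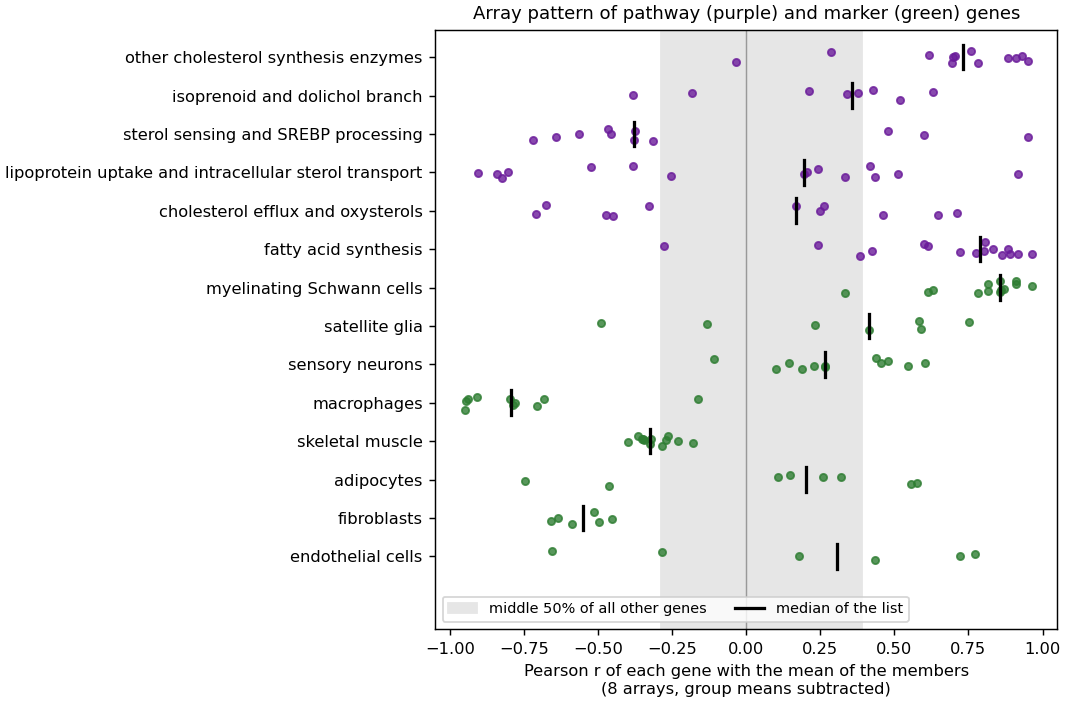
Pearson r of each measured gene with the mean of the 7 cholesterol synthesis genes (horizontal axis, 8 arrays, group means subtracted), by pathway list (purple) and marker list (green). Black bars are list medians and grey marks the middle 50% of all other genes, -0.29 to 0.39. The medians of other cholesterol enzymes (0.73), fatty acid synthesis (0.79) and myelinating Schwann cells (0.86) lie right of the grey band and that of macrophages (-0.79) lies left of it.

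Markers of myelinating Schwann cells moved with the 7 genes and markers of macrophages moved against them. The myelin list had 13 of 16 genes measured, and its mean was 0.18, 0.15, -0.09 and -0.29 in HDACI and -0.01, -0.01, -0.04 and 0.11 in vehicle. HDACI replicates 1 and 2 were highest for myelin. HDACI replicate 4 was lowest both for myelin and for cholesterol synthesis. The r was 0.90 (rho 0.93) and 0.74 without HDACI replicates 1 and 4, and 12 of 13 markers had an r over 0.5. The r was 0.97 for Drp2, 0.91 for Fa2h and Gjb1, 0.87 for Pmp22, 0.86 for Prx, Cldn19 and Mbp, 0.82 for Mal and Ugt8, 0.78 for Mag, 0.63 for Cnp, 0.62 for Egr2 and 0.33 for Pmp2. Between groups the list held no gene past the threshold (8 lower, 5 higher, 0 past an unadjusted limma p of 0.05, median -0.02).

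Macrophage markers, 10 of 10 measured, averaged -0.18, -0.14, 0.07 and 0.44 in HDACI and 0.13, -0.09, -0.09 and -0.14 in vehicle. HDACI replicate 4, the lowest array for cholesterol synthesis, was the highest for macrophages. The r with the 7 genes was -0.90 (rho -0.98) and -0.78 without HDACI replicates 1 and 4, and 9 of 10 markers had an r under -0.5, against 12.5% of all other genes. Cd68, a lysosomal protein of macrophages that was picked once its values were known, was at 10.24, 10.37, 10.88 and 11.50 in HDACI and 10.98, 10.71, 10.41 and 10.64 in vehicle. Between groups, 10 of 10 macrophage markers were higher in HDACI, against 53.1% of all genes, 0 passed an unadjusted limma p of 0.05 and the median was 0.09. Since 9 of the 10 shared an array pattern, they are not separate observations. Nor was this direction particular to macrophages. Fibroblast markers were higher in 6 of 6 (median 0.16), and endothelial markers were higher in 4 and lower in 2 (median 0.13). In both lists 0 passed an unadjusted limma p of 0.05. For satellite glia, neurons, muscle, adipocytes, fibroblasts and endothelial cells, the r was 0.43, 0.41, -0.31, -0.13, -0.56 and 0.15. Without HDACI replicates 1 and 4 it was 0.46, 0.43, -0.61, 0.12, -0.04 and 0.54 in that order. The part of Schwann cell or macrophage content in the spread of the 7 genes was not tested.

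**Figure D5:**
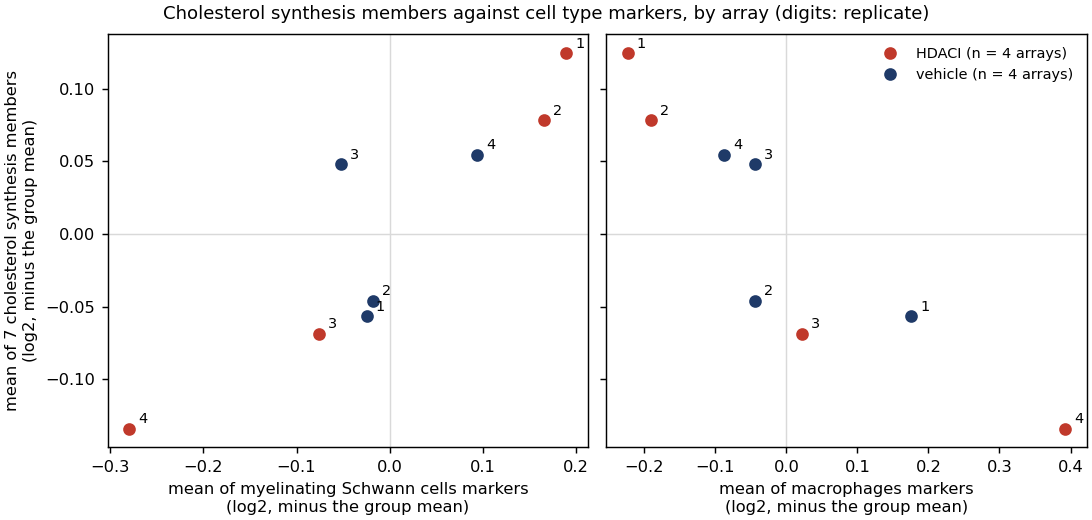
Mean of the 7 cholesterol synthesis genes (vertical axis, log2 minus the group mean) against the mean of 13 myelinating Schwann cell markers (left) and 10 macrophage markers (right) on each array, HDACI in red and vehicle in blue with replicate numbers. HDACI replicates 1 and 4 are at opposite ends of both panels, and the r was 0.90 on the left and -0.90 on the right.

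Across all 14490 other genes, the median r with the mean of the 7 was 0.07. The 8 genes most alike were Slco3a1 (0.99), Sufu, Cep350 and Drp2 (0.97 each), and Scd2, St8sia5, Nod1 and Gatm (0.96 each), over 8 arrays. Drp2 encodes a dystrophin-related protein of the Schwann cell membrane, and Scd2 is a fatty acid desaturase. Slco3a1, an organic anion transporter, measured 10.24, 10.14, 10.01 and 9.91 in HDACI and 10.07, 10.06, 10.17 and 10.18 in vehicle, with the same high and low arrays as Sqle. None of the 8 passed an unadjusted p of 0.05 between groups (differences of -0.14 to 0.02, limma p of 0.363 to 0.85). At the opposite end stood Sla (-0.99), followed by Fermt3, Irf8, Plek, Plcb2, Laptm5, Itgal and Spi1, which were named after their values were seen. Irf8 and Spi1 encode transcription factors of the myeloid lineage.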

How the data were processed

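RNA from 8 injured L5 DRG (4 HDACI, 4 vehicle) was measured on Affymetrix Rat Gene 1.0 ST arrays. The authors deposited log2 values made with RMA in the package oligo, in which probes are corrected for background, brought to one distribution across arrays by quantile normalization and summarized per probe set. No tool versions were given in the sources used here. Because all arrays are forced to one distribution, a rise or drop of all transcripts together cannot be seen. Arrays have no read depth, and their number limits the precision.

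Of 28826 probe sets, 15209 carried 1 gene symbol (14497 genes, 15178 probe sets matched to a current RefSeq gene), 306 several and 13311 none. Per gene, the probe set with the highest mean was used. HDACI was compared with vehicle by limma 3.58.1 (R 4.3.3, lmFit and eBayes, two-sided, no covariate), and p-values were adjusted by Benjamini-Hochberg over the whole table. The limma step was also run on simulated data with known changes. Correlations were computed after subtraction of group means and carry no p. List levels per array are means of each gene's value minus its mean over 8 arrays. No array was a copy of another (at most 0.0486% of values equal in a pair).

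The genes, the 6 pathway lists and the 8 marker lists were chosen with earlier results of these data known. Named were the chosen genes, of each pathway list those past an unadjusted p of 0.05 or otherwise the 2 with the smallest p, the 8 genes most alike, and the markers of the list that moved most with the chosen genes. The text says so where another gene was picked by its values. Alternatives were a replicate block, filters on probe sets, 3 further normalizations, an intensity trend, array weights, a muscle score as covariate, means over a gene's probe sets, and leaving out arrays. The settings for the correlations and for the counts over the pathway lists and all probe sets were added after the data had been seen.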

Additional observations from a re-analysis of the deposited data

Results flagged for a closer look

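One value stood apart from its group. Nr1h2, the gene of the oxysterol receptor LXR beta, measured 10.27 in HDACI replicate 4, and the nearest of the other HDACI arrays measured 10.34. The gap was 0.907 of the range of the 4 arrays, above Dixon's 95% critical value for a group of that size. In all, 38 groups of 4 arrays were tested in this way, and chance alone would flag about 1 in 20 of them.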

How the results depend on the processing

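No probe set passed an adjusted p of 0.05 under any of the 18 alternatives. The number of the 7 genes past an unadjusted p of 0.05 was 0 to 1 when 1 array was left out (1 without HDACI replicate 1) and 0 otherwise, and the number lower in HDACI was 4 (without HDACI replicate 4) to 7. Their median difference was -0.09 to -0.03 with 1 array left out, and it kept its sign under all 19 alternatives. Single differences turned for Idi1 (0.043) and Lss (0.012) with array weights, for Idi1 without HDACI replicate 3 (0.0049), for Fdft1 (0.0057), Lss (0.021) and Dhcr7 (0.039) without HDACI replicate 4, and for Dhcr7 (0.013) without vehicle replicate 4. The lowest values with 1 array left out were -0.092 for Idi1, -0.069 for Fdft1, -0.091 for Lss and -0.080 for Dhcr7. The cause was not tested. Sqle, Insig1 and Cyp51 kept their direction. Pathway genes past an unadjusted p of 0.05, 1 as reported, numbered 0 (without vehicle replicate 3) to 3 (without vehicle replicate 1) with 1 array left out (2 without HDACI replicate 1 or 3 or vehicle replicate 4) and 2 with array weights, the muscle covariate or without vehicle replicates 1 and 2. Over all probe sets the count was 1022, 2045 with array weights, 567 among probe sets with 1 symbol, where fewer were tested, and 708 to 1758 (without vehicle replicate 1) with 1 array left out.

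Same-numbered arrays did not deviate together over all probe sets (correlations of -0.28 to 0.01), so the numbers were not treated as pairs in the main comparison. These correlations could not show a link that touches few probe sets. With the replicate block, the pathway count was 0, as Me1 had a p of 0.0596 in limma, and all 7 genes were still lower. The mean r between the 7 genes was 0.64 to 0.79 with 1 array left out, the r with myelin markers 0.82 to 0.97, and that with macrophage markers -0.95 to -0.85. None of these results has a read depth, and small differences are limited by the number of arrays.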
